A study of Mus musculus with 6 samples.

Results

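Moxd1 was below 1 CPM (a library-size-scaled count) in every liver tumor of wild-type (WT) mice and at 63.5 to 100 CPM in tumors of Nr2e3-/- mice. It was examined here with Wdfy1, E030018B13Rik and 8430408G22Rik, for which the libraries of the 2 genotypes likewise did not overlap, and with Nnt, taken as a marker of mouse substrain. These 5 genes are the rows with those symbols among the 24063 genes of the count table. The first 4 were chosen by their expression values in this comparison, selected on libraries of WT and Nr2e3-/- that did not overlap, so their differences are described here without a test, and Nnt is tested. All 5 passed the filter on low counts that left 13572 genes. The data are RNA-seq libraries of 3 WT and 3 Nr2e3-/- liver tumors from male mice labelled C57BL/6, which had received 25 mg per kg of diethylnitrosamine (DEN), a liver carcinogen, at 15 days of age and were sampled at the 24-week time point. Nr2e3-/- mice lack the orphan nuclear receptor NR2E3 in the whole animal, and every mouse of both genotypes received DEN, so no untreated liver is among the samples. The study's methods name C57BL/6J as the WT strain, and the origin of the knockout line is not given in the sources used here.

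These genes share no pathway. Moxd1 encodes a copper-dependent monooxygenase of the endoplasmic reticulum, a relative of dopamine beta-hydroxylase, the enzyme that makes noradrenaline. Wdfy1 encodes a protein with WD repeats and a FYVE domain that binds the lipid PI3P on early endosomes and acts as an adaptor for Toll-like receptors 3 and 4. 8430408G22Rik, now named Depp1, is induced by FOXO transcription factors and by fasting. E030018B13Rik is known by its clone name only. Nnt encodes the transhydrogenase of the inner mitochondrial membrane, which uses the proton gradient to make NADPH, and it carries a deletion of several exons in C57BL/6J but not in other C57BL/6 substrains, which makes it a common check of strain background.

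Depth was 25250090 to 28690279 counts in WT libraries and 15376261 to 28336305 in Nr2e3-/- libraries. Nr2e3 had 0 counts in all 6 libraries. A count of 0 allows up to 3 counts, or 0.105 to 0.195 CPM depending on the library and for counting error only, so Nr2e3 gave no check of the genotype labels. Hepatocyte markers summed to 119920 to 155630 CPM in every library, and 6 of 7 pancreatic acinar markers were at 0 in all of them. Nr2e3-/- replicate 1 stood apart: 13 genes (0.0958% of those tested, 0.0663% higher and 0.0295% lower in Nr2e3-/-) had a Benjamini-Hochberg adjusted p-value under 0.05 in edgeR's two-sided quasi-likelihood test with all libraries, and 3022 (21.8%, 12.2% of genes tested being called higher) without it. By DESeq2 8.07% and by limma-voom 0.0516% of genes tested passed, and in edgeR the unadjusted p-value was under 0.05 for 21.5%, with 11.8% higher. These shares are the background of the counts in the gene lists. In Nr2e3-/- replicate 1 markers of neutrophils (2.32 CPM) and bile duct (69.9 CPM) lay within the WT range, whereas both were higher in the other two Nr2e3-/- libraries (13.2 and 22.5 CPM for neutrophils, 186 and 429 CPM for bile duct). The bile duct sum was mostly 1 gene, Spp1 (171 and 410 CPM in those libraries). Epcam and Krt19 had log2 fold changes of 1.58 and 0.67, and Sox9, Krt7 and Cldn7 of -0.21, -0.29 and -2.05. All of these genes overlapped between the genotypes. Epcam, like Spp1, was above every WT library in Nr2e3-/- replicates 2 and 3 but not in replicate 1. The summed level of 5 red cell markers, of which Hba-a1 and Hba-a2 hold identical values, was 229 to 322 CPM in Nr2e3-/- and 142 to 202 CPM in WT libraries, but singly only Alas2 did not overlap. In bulk tumor RNA, fewer cells of a type and less RNA per cell cannot be told apart.

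The bases upstream of the annotated start were at hand for 3 of the 4 genes that were higher in Nr2e3-/- tumors. They are shown as a description only, as these genes were chosen for genotypes that did not overlap. They come from RefSeq on GRCm38.p6, the assembly called mm10 by the authors, and run 5′ to 3′ on the plus strand. They cover chr10:24223267-24223516 for Moxd1, chr7:63916607-63916856 for E030018B13Rik and chr6:116650434-116650608 for 8430408G22Rik. The window searched for 8430408G22Rik ran on to 116650683, next to the start, and only its first 175 bases are shown. Capitals mark matches on either strand to the GC box bound by Sp1 (GGGCGG) or the core motif bound by NR2E3 (AAGTCA).
Moxd1: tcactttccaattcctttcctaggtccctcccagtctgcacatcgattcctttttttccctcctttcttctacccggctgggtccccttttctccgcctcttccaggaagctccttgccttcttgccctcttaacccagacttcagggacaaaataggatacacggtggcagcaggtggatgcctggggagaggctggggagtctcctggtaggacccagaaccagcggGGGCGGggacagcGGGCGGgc
E030018B13Rik: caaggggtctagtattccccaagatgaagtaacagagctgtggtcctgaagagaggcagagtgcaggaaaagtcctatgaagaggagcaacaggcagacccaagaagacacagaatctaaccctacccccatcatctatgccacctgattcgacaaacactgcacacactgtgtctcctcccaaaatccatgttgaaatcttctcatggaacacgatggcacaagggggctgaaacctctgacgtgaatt
8430408G22Rik: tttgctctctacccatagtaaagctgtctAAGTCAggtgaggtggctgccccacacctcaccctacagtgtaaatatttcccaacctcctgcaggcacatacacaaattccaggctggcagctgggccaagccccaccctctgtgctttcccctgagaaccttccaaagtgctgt

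The 250 bases before the RefSeq start were searched on both strands for these motifs, for the FOXO site TGTTTAC and for the TATA box TATAAA, and no match overlapped another. Moxd1 had a pair of GC boxes, beginning 21 and 8 bases before the start. At least 1 is held by 32.7% of 32851 mouse promoters of the same length, and the share holding a pair was not counted. 8430408G22Rik had 1 AAGTCA, beginning 221 bases before the start, as 13.1% of promoters do. The other motifs were in none of the 3 windows, and TGTTTAC is in 3.17% and TATAAA in 12.4% of all promoters. The Moxd1 window was richest in GC (58.4%, with 8 CpG), and those of E030018B13Rik (48.8%, 3 CpG) and 8430408G22Rik (50.8%, 2 CpG) were below the median of all promoters (52.4%, 6 CpG). Only exact matches to these letters were counted, so variants of a site could be missed, and binding was not measured.

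Moxd1 lies on chromosome 10 from 24223517 to 24302783 on the plus strand. It was counted 19, 4 and 24 times in WT replicates 1, 2 and 3, and 959, 2129 and 1855 times in Nr2e3-/- replicates 1, 2 and 3. After scaling by library size with the TMM factors, this is 0.730, 0.135 and 0.832 CPM in WT and 63.5, 79.0 and 100 CPM in Nr2e3-/- tumors. Every Nr2e3-/- library was thus far above every WT library, and the lowest Nr2e3-/- value was 76.3 times the highest WT value. The means were 0.566 ± 0.376 CPM (SD, n = 3) and 80.9 ± 18.5 CPM (SD, n = 3), and edgeR fitted a difference of 7.16 on the log2 scale (standard error 0.47). The WT level was low but above 0: the 95% Poisson interval of the lowest WT library ran from 0.0369 to 0.346 CPM and that of the highest from 0.533 to 1.24 CPM. These intervals cover counting error only, and the WT libraries differed among themselves by up to 6.15 times. In Nr2e3-/- tumors the spread was 1.58 times, with replicate 1 lowest.

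E030018B13Rik lies on chromosome 7 from 63916857 to 63920539. It was counted 10, 6 and 5 times in WT replicates 1, 2 and 3 and 43, 56 and 58 times in Nr2e3-/- replicates 1, 2 and 3. These are 0.384, 0.203 and 0.173 CPM in WT against 2.85, 2.08 and 3.14 CPM in Nr2e3-/- tumors. The groups were separated by a factor of 5.41 at their closest. At these counts a single library is imprecise, with a 95% counting interval of 0.184 to 0.706 CPM in WT replicate 1. The log2 fold change was 3.39 (standard error 0.38). The gene sits on the plus strand inside an intron of Klf13, which is transcribed from the minus strand, and 0 of its bases fall in annotated Klf13 exons. Whether the counting used strand is not given in the sources used here, so intronic reads of Klf13 could be counted on it. Klf13, a zinc finger transcription factor, had 82.9, 86.3 and 97.4 CPM in WT and 110, 65.1 and 65.2 CPM in Nr2e3-/- tumors, and its groups overlapped (log2 difference -0.15, standard error 0.22).

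8430408G22Rik (Depp1) lies on chromosome 6 from 116650684 to 116652847. WT replicates 1, 2 and 3 held 9.95, 8.66 and 10.4 CPM, and the Nr2e3-/- replicates held 45.5, 28.7 and 29.3 CPM in the same order. The WT libraries were close together (a spread of 1.20 times), and replicate 1 was the highest Nr2e3-/- library. The lowest Nr2e3-/- value was 2.76 times the highest WT value. The means of 9.67 ± 0.903 and 34.5 ± 9.52 CPM (SD, n = 3 each) gave a log2 fold change of 1.83 (standard error 0.21). Without Nr2e3-/- replicate 1 it was 1.59 (standard error 0.12). Rassf4, an annotated gene that overlaps it, differed by -0.37 on the log2 scale (standard error 0.23), and its groups overlapped.

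Wdfy1 is transcribed from the minus strand of chromosome 1 (79702262 to 79776143). Its levels were 13.9, 15.5 and 11.7 CPM in WT replicates 1, 2 and 3 and 42.8, 46.2 and 46.9 CPM in Nr2e3-/- replicates 1, 2 and 3. It had the least spread of the 5 genes among Nr2e3-/- libraries (1.10 times), and its groups were separated by a factor of 2.75 at their closest. The means of 13.7 ± 1.93 and 45.3 ± 2.20 CPM (SD, n = 3 each) gave a log2 fold change of 1.73 (standard error 0.13), which was 1.77 without Nr2e3-/- replicate 1. Mrpl44, which overlaps Wdfy1 in the annotation and encodes a mitochondrial ribosomal protein, differed by 0.05 on the log2 scale (standard error 0.12).

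**Figure D1:**
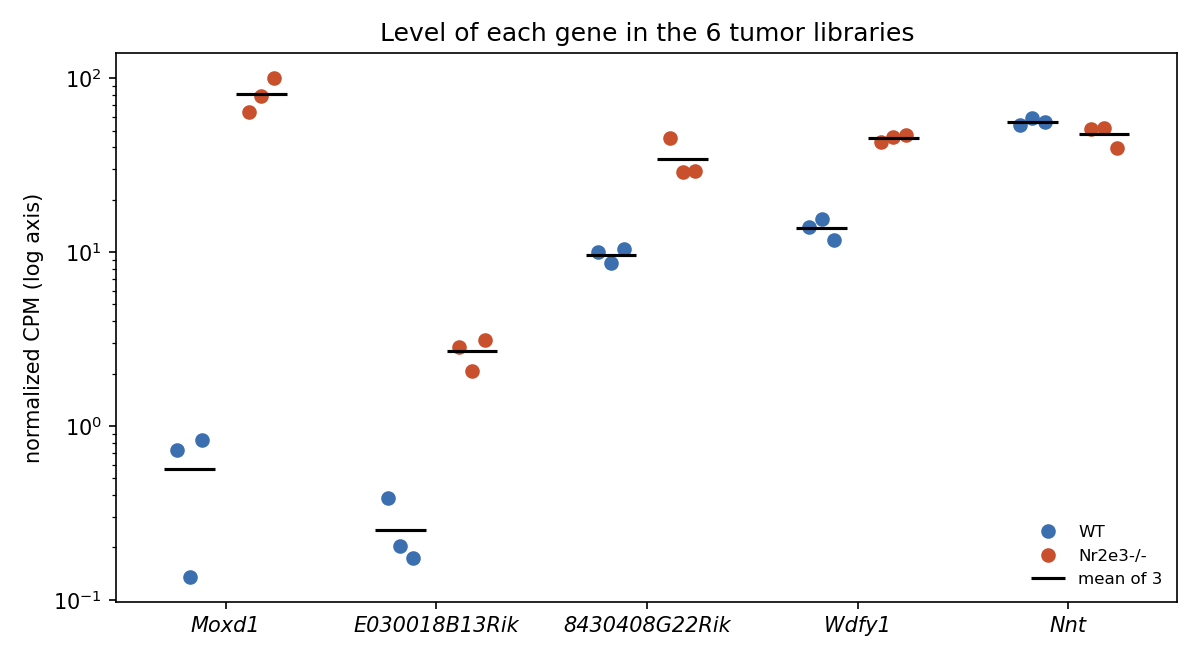
Normalized CPM (log axis) of each gene in the 3 WT (blue) and 3 Nr2e3-/- (red) tumor libraries, 1 point per library in replicate order, with black bars at the group means. Moxd1 goes from under 1 CPM to 63.5 to 100 CPM, while Nnt lies between 39.7 and 58.8 CPM in all libraries.

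Nnt is transcribed from the minus strand of chromosome 13 (119335527 to 119409257). It was the most evenly read of the 5 genes across the genotypes, at 53.7, 58.8 and 56.2 CPM in WT replicates 1, 2 and 3 and 50.8, 51.9 and 39.7 CPM in Nr2e3-/- replicates 1, 2 and 3. All Nr2e3-/- libraries were below all WT libraries, but by a factor of 1.03 only at the closest pair, and replicate 3 was the lowest. The log2 fold change was -0.24 (standard error 0.13). It did not pass edgeR's quasi-likelihood F test (p = 0.0958, adjusted p = 0.304), and an exact two-sided permutation test gave p = 0.1, the smallest that 3 libraries against 3 allow. Nnt transcripts were thus counted in tumors of both genotypes. The reference genome was itself assembled from C57BL/6J, so reads from exons that C57BL/6J lacks have no place in it, and the counts per gene cannot tell the intact allele from the deleted one.

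The non-overlap that chose the first 4 genes is common in these data: of the 13572 genes tested, 26.8% did not overlap between the genotypes, 13.9% higher and 12.9% lower in Nr2e3-/- tumors. By count these were 1887 higher and 1755 lower, a split that upper quartile scaling turned to 1298 higher and 2389 lower, while all 5 genes kept their direction. The width of the gap was not common. It was taken as the log2 ratio of the lowest library of the higher group to the highest library of the lower group, with a prior count of 2, and its median over all genes tested was -0.13. Moxd1 had the widest gap of all genes tested (6.12) and also the largest absolute log2 fold change. E030018B13Rik ranked 3rd by gap (2.21), 8430408G22Rik 19th (1.46) and Wdfy1 20th (1.46), while Nnt ranked 2799th (0.05), close to the limit of 0 that separates groups that do not overlap from those that do. With this prior count, only 5 genes had groups at least 4-fold apart at their closest, all of them higher in Nr2e3-/- tumors: Moxd1, Ugt2b37 (a UDP-glucuronosyltransferase of a family with near-identical members), E030018B13Rik, Sult1e1 (estrogen sulfotransferase) and Mt2 (a metallothionein). At 2-fold there were 65 genes, 31 higher and 34 lower. The other genes among the 10 widest gaps were Osbpl3, Capn8, Mup16, Atxn1 and 4930404H11Rik, of which Osbpl3 and 4930404H11Rik were lower. The prior count narrows gaps at low counts, as for 4930404H11Rik, at 0.590 CPM in its lowest WT and 0.132 CPM in its highest Nr2e3-/- library.

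**Figure D2:**
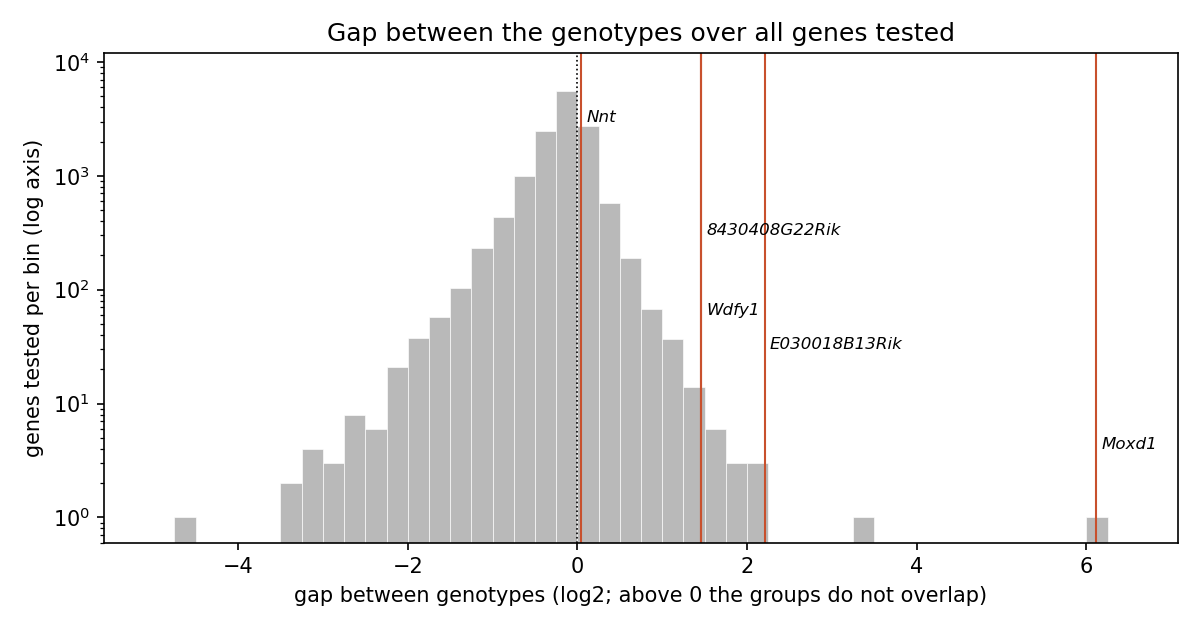
Number of genes tested (log axis) by the gap between the genotypes on the log2 scale, where values above 0 mean that the 3 WT and 3 Nr2e3-/- libraries do not overlap, with red lines at the 5 genes. Moxd1 stands alone at 6.12, and Nnt lies next to 0 at 0.05.

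Moxd1 was also the only gene of the 24063 in the table that was under 1 CPM (before TMM scaling) in all libraries of a genotype and at 5 CPM or more in all libraries of the other. With the upper bound set at 2 CPM and the lower at 10 CPM, 2 genes met this, both low in WT, and 0 were low in Nr2e3-/- tumors. With bounds of 1 and 2 CPM, 1 gene was low in WT and 2 were low in Nr2e3-/- tumors. The 1 gene low in WT at these bounds was Moxd1. E030018B13Rik missed the bounds of 1 and 5 CPM, and also those of 1 and 2 CPM, by its low level in Nr2e3-/- tumors. The word switch thus describes Moxd1 only. E030018B13Rik was low in both genotypes, and 8430408G22Rik and Wdfy1 were plainly read in WT tumors. These last were 3.57 and 3.31 times higher in the mean of Nr2e3-/- tumors.

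Levels of different genes can be compared only per length, for which the bases in annotated exons were used. In WT tumors Nnt was highest (7.99 CPM per kb of exon), followed by 8430408G22Rik (7.12), Wdfy1 (2.11), E030018B13Rik (0.25) and Moxd1 (0.177), of which the first pair and the last pair did not differ beyond their spread. In Nr2e3-/- tumors 8430408G22Rik (25.4 CPM per kb) and Moxd1 (25.3) were highest and did not differ beyond their spread, followed by Wdfy1 (6.98) and Nnt (6.75), which did not either, and then E030018B13Rik (2.65). Moxd1 was thus among the lowest in WT and among the highest in Nr2e3-/- tumors.

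Each fold change was recomputed without each library in turn. The log2 fold change of Moxd1 stayed between 6.68 and 7.57, lowest without WT replicate 2, which had its smallest count. That of E030018B13Rik ranged from 3.18 to 3.80, highest without WT replicate 1. 8430408G22Rik ranged from 1.59 to 1.95, lowest without Nr2e3-/- replicate 1, and Wdfy1 from 1.62 to 1.83. Nnt ranged from -0.31 to -0.13 and was closest to 0 without Nr2e3-/- replicate 3. The position of Nr2e3-/- replicate 1 was not the same for the 5 genes. Measured from the WT mean toward the mean of replicates 2 and 3, it lay at 70.6% of the way for Moxd1, 88.5% for Wdfy1, 110% for E030018B13Rik and 52.4% for Nnt, and at 185% for 8430408G22Rik.

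**Figure D3:**
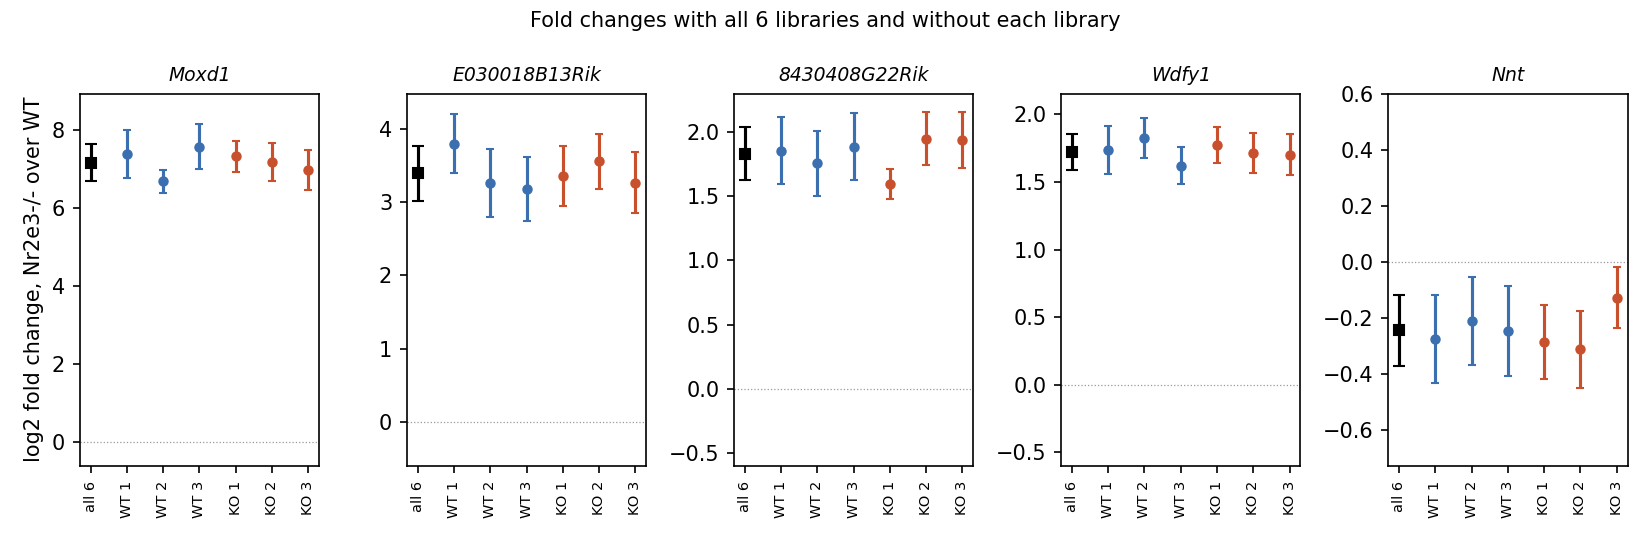
Log2 fold change of Nr2e3-/- over WT with its standard error for each gene, with all 6 libraries (black square) and without each WT (blue) or Nr2e3-/- (red, KO) library named on the x axis; each panel has its own y axis. All values keep the sign of the full data, and the 4 genes higher in Nr2e3-/- tumors stay well above 0.

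Genes around each of the 5 were examined to see how far the differences reached along the chromosome. Within 500 kb on either side, 64 other annotated genes were in the table and 31 were tested, of which 0 passed an adjusted p-value of 0.05 in edgeR against a background of 0.0958%. By DESeq2 4 passed (8.07% of all genes did), by limma-voom 0, and by edgeR without Nr2e3-/- replicate 1 7 did, close to the 21.8% of all genes in that fit. Among the 31, 5 were separated by genotype (16.1%, against 26.8% of all genes tested). Beside Moxd1 these were Vnn1, a pantetheinase, Enpp1 and Enpp3, both ectonucleotide pyrophosphatases, and all 3 were lower in Nr2e3-/- tumors, with log2 fold changes of -0.96, -0.50 and -0.80 and adjusted p-values of 0.0963, 0.0984 and 0.115 from edgeR. Stx7, the tested gene nearest to Moxd1 at 34.6 kb, overlapped between the genotypes (log2 difference 0.24, standard error 0.14). The trace amine receptor genes between Vnn1 and Stx7 were too low to be tested.

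Beside Wdfy1, Serpine2, a secreted protease inhibitor 18.2 kb away, had 19.9 ± 1.92 CPM in WT and 35.1 ± 11.6 CPM in Nr2e3-/- tumors (SD, n = 3 each). Its groups did not overlap, and its log2 fold change of 0.82 had an adjusted p = 0.137 from edgeR. Beside 8430408G22Rik, Zfp422 (21.7 kb away) was higher in all Nr2e3-/- libraries by a small margin (log2 difference 0.26, edgeR adjusted p = 0.239). Around E030018B13Rik and Nnt, no tested gene was separated by genotype among 5 and 7 tested. The gap at each of the first 4 genes was wider than that at any tested neighbour. These 4 were chosen for genotypes that did not overlap, so no conclusion is drawn from this.

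**Figure D4:**
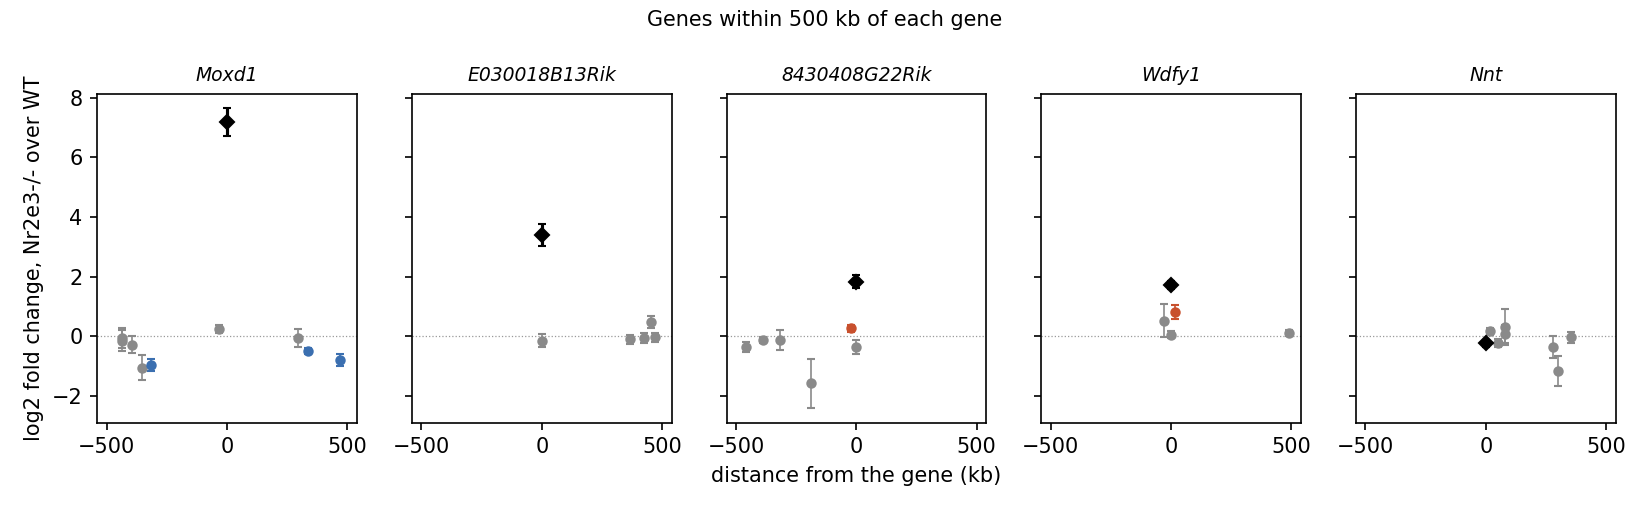
Log2 fold change of Nr2e3-/- over WT with its standard error for genes tested within 500 kb, by distance from each gene in kb, with the gene itself as a black diamond at 0. Red and blue points do not overlap between genotypes (higher and lower in Nr2e3-/-), grey points do; Moxd1 lies at 7.16 among neighbours between -1.06 and 0.24.

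Nnt was set beside other genes that vary between C57BL/6 substrains or colonies, a list written from memory. Of 6 further genes 4 could be tested, and 0 passed an adjusted p-value of 0.05 in edgeR, 3 had an unadjusted p-value under 0.05 (21.5% of all genes tested), 2 passed in DESeq2 (8.07%) and 0 in limma-voom (0.0516%). In 3 of them the genotypes did not overlap, as in 26.8% of all genes tested, and 4 genes are too few to set against these shares. Ide, the insulin-degrading enzyme, had 218, 180 and 166 CPM in WT replicates 1, 2 and 3 and 131, 108 and 129 CPM in Nr2e3-/- replicates 1, 2 and 3 (log2 fold change -0.62, standard error 0.14, adjusted p = 0.106 from edgeR). Fgfbp3, its neighbour in a segment known to be duplicated in some C57BL/6J mice, had 0.499, 0.710 and 0.520 CPM in WT and 0.331, 0.223 and 0.0541 CPM in Nr2e3-/- tumors (log2 fold change -1.51, adjusted p = 0.174 from edgeR), at very low counts. Nlrp12, an inflammasome regulator of myeloid cells with a variant in C57BL/6J, had 33.0, 42.1 and 37.5 CPM in WT and 48.1, 78.9 and 92.0 CPM in Nr2e3-/- tumors (log2 fold change 0.96, adjusted p = 0.114 from edgeR). Cyfip2 overlapped between the groups. The median log2 fold change of the 4 was -0.64, against 0.01 over all genes tested. Both genotypes are labelled C57BL/6, and a difference in background between the WT mice and the knockout line cannot be told apart from the genotype. Counts per gene carry no allele, so its part in these values was not tested.

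**Figure D5:**
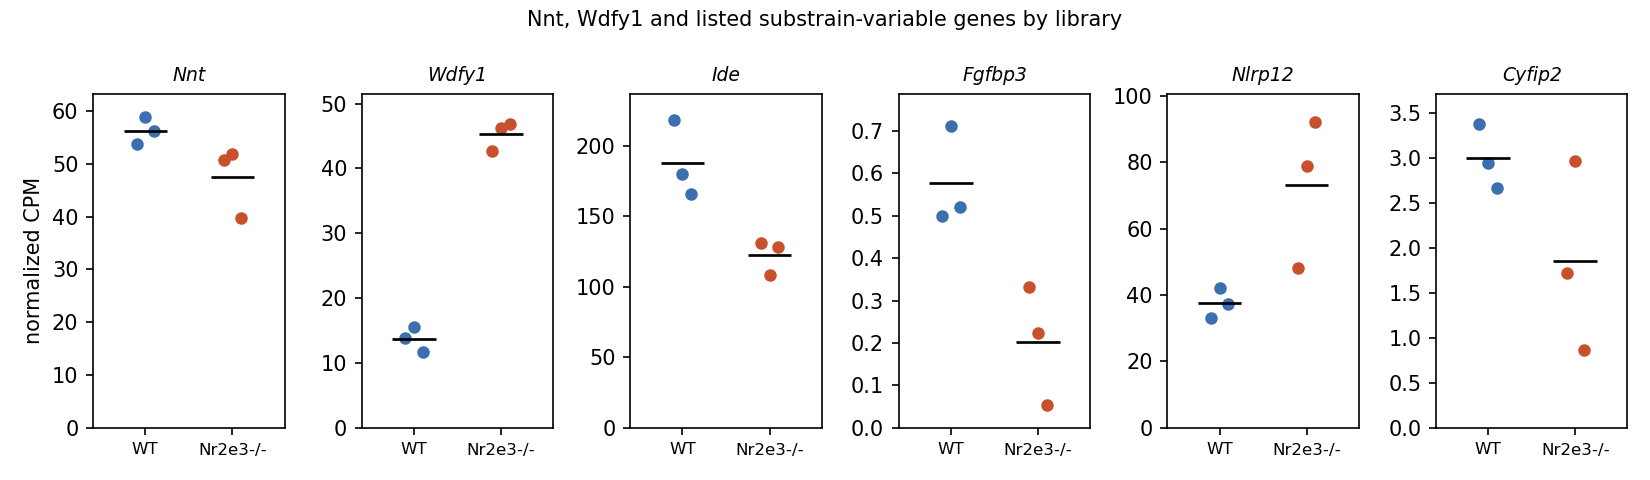
Normalized CPM of Nnt, Wdfy1 and the 4 tested genes of the substrain list in WT (blue) and Nr2e3-/- (red) libraries, 1 point per library with black bars at the group means; each panel has its own axis from 0. Ide and Fgfbp3 are lower and Wdfy1 and Nlrp12 higher in all 3 Nr2e3-/- libraries, and Nnt differs least.

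Pathway partners of Moxd1 were represented by 18 genes of copper monooxygenases and copper handling. Its relatives Dbh and Moxd2 had 0 counts in all 6 libraries, and Pam, the amidating monooxygenase of peptide hormones, had 30.2 ± 0.783 CPM in WT and 25.3 ± 5.86 CPM in Nr2e3-/- tumors (SD, n = 3 each) with overlapping groups (adjusted p = 0.398 from edgeR). Of 16 genes tested, 0 passed an adjusted p-value of 0.05 in edgeR, 5 had an unadjusted p-value under 0.05 (3 higher, 2 lower, against 21.5% of all genes tested), and 3 passed in DESeq2 and 0 in limma-voom. The smallest p-values were those of Steap4, a metalloreductase (log2 fold change 2.15, adjusted p = 0.10 from edgeR), Cyb561, an ascorbate-regenerating cytochrome (1.45, adjusted p = 0.127), and Steap3 (-0.48, adjusted p = 0.142). Steap4 had 304, 416 and 230 CPM in WT and 571, 2139 and 1506 CPM in Nr2e3-/- tumors, with replicate 1 nearest to WT. Without that library 7 of the 16 passed, 4 higher and 3 lower, where 21.8% of all genes tested passed.

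As its relative Dbh defines noradrenaline-making cells, markers of neural and chromaffin cells were read. Their summed level was 1.11 to 1.39 CPM in WT and 0.397 to 0.865 CPM in Nr2e3-/- libraries, 8 of the 9 were under 1 CPM in every library, and Dbh and Th, which define chromaffin cells, were at 0. Markers of stellate cells and fibroblasts summed to 365 to 450 CPM in WT and 226 to 410 CPM in Nr2e3-/- tumors and overlapped, as did those of endothelial cells (394 to 415 against 329 to 415 CPM). The part of these cells in the Moxd1 difference was not tested.

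Around Wdfy1, 20 genes of Toll-like receptor 3 and 4 signaling were read, of which 19 were tested. By edgeR 0 passed an adjusted p-value of 0.05 and 9 had an unadjusted p-value under 0.05, all higher in Nr2e3-/- tumors, against 11.8% of all genes tested that were higher at this level. By DESeq2 2 passed, against 8.07% of all genes tested, and by limma-voom 0. The median log2 fold change was 0.41, and 4 of 19 (21.1%) did not overlap, against 26.8% of all genes tested. The smallest p-values were those of Tirap, an adaptor (log2 fold change 1.10, adjusted p = 0.107 from edgeR), Nfkb1 (1.34, adjusted p = 0.144) and Traf3 (0.74, adjusted p = 0.175). Ticam1, the TRIF adaptor that Wdfy1 recruits, had a log2 fold change of 0.41, and the receptors Tlr3 and Tlr4 had 0.07 and 0.21 with overlapping groups. Nfkb1 had 30.6, 29.7 and 26.8 CPM in WT replicates 1, 2 and 3 and 31.1, 113 and 76.4 CPM in Nr2e3-/- replicates 1, 2 and 3, so replicate 1 lay next to WT, which it did not for Wdfy1. Without this library 11 of 19 passed, all higher, where 12.2% of all genes tested passed as higher. Markers of macrophages summed to 298 to 373 CPM in WT and to 262, 645 and 338 CPM in Nr2e3-/- replicates 1, 2 and 3, and those of neutrophils were also highest in replicate 2. Their part in these values was not tested.

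Other FYVE domain and PI3P proteins were read as a further list for Wdfy1. Of 18 tested, 0 passed in edgeR, DESeq2 or limma-voom, and edgeR gave an unadjusted p-value under 0.05 for 3, the lower Wdfy3 (log2 fold change -0.42) and Zfyve26 (-0.34) and the higher Hgs (0.39). Wdfy2, its closest relative by name, had 5.48 ± 0.604 and 5.07 ± 0.330 CPM (SD, n = 3 each). The median of the list was 0.08, and 27.8% did not overlap, against 26.8% of all genes tested.

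For 8430408G22Rik, 21 FOXO factors and FOXO targets of liver were read and 20 tested. By edgeR 0 passed, and 2 had an unadjusted p-value under 0.05 (both higher), against 21.5% of all genes tested. By DESeq2 1 passed, against 8.07% of all genes tested, and by limma-voom 0. Only 1 of the 20 (5%) did not overlap, against 26.8% of all genes tested: Cited2, a transcriptional coregulator, at 14.3, 15.2 and 13.2 CPM in WT and 27.7, 20.0 and 18.1 CPM in Nr2e3-/- tumors (log2 fold change 0.62, adjusted p = 0.133 from edgeR). Bcl6, a transcriptional repressor, had a log2 fold change of 2.01 (adjusted p = 0.15) and Irs2, an insulin receptor substrate, 1.31 (adjusted p = 0.242), and both overlapped. The gluconeogenic targets Pck1 and G6pc had 0.40 and 0.18 with standard errors of 0.37 and 0.52, and Igfbp1 had 0.07. Foxo1, Foxo3 and Foxo4 lay between -0.16 and 0.18. Nr2e3-/- replicate 1 was the highest of the 6 libraries for 8430408G22Rik and for 8 of the 20 FOXO genes tested, Cited2 and Bcl6 among them.

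For Nnt, 25 genes of NADPH supply and mitochondrial redox defence were read and 24 tested. By edgeR 0 passed, and 3 had an unadjusted p-value under 0.05 (1 higher, 2 lower), against 21.5% of all genes tested. By DESeq2 1 passed, against 8.07% of all genes tested, and by limma-voom 0. The smallest p-values were those of Idh2, the mitochondrial NADPH-forming isocitrate dehydrogenase (104 ± 6.75 CPM in WT, 74.7 ± 9.92 CPM in Nr2e3-/-, SD, n = 3 each, adjusted p = 0.124 from edgeR), Gsr, glutathione reductase (log2 fold change 0.35, adjusted p = 0.195), and Mthfd2l (-0.84, adjusted p = 0.231). The median of the list was -0.06, and 25% did not overlap, against 26.8% of all genes tested. Nnt with -0.24 lay within its range of -0.84 to 1.36.

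Among 12 tested Krüppel-like factors, the family of Klf13, 0 passed in edgeR, 3 had an unadjusted p-value under 0.05, 2 passed in DESeq2 and 0 in limma-voom. Klf10 (log2 fold change -0.98, adjusted p = 0.0936 from edgeR) and Klf12 (-0.68, adjusted p = 0.112) were lower and Klf3 (0.33, adjusted p = 0.141) higher in Nr2e3-/- libraries without overlap. Klf13, around E030018B13Rik, was not among them.

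The genes whose pattern over the 6 libraries was most like that of each gene were found by the root mean square difference of log2 CPM after centring each gene. The values were not scaled, so this distance reflects the size of the genotype difference as well as its shape. The nearest gene to Moxd1, Ugt2b37, was 1.01 away on the log2 scale, followed by the acute phase genes Saa2 (1.77) and Saa1 (1.88). As Moxd1 had the largest difference of all genes tested, it was bound to lie far from most genes. Wdfy1 was nearest to Hsp90aa1 (0.13), Hsph1 (0.15) and Hspb1 (0.17), all of which encode cytosolic heat shock proteins or their cochaperones, and these were the only 3 genes within 0.2 of it. Hsp90aa1 had 41.0, 36.1 and 29.1 CPM in WT and 97.3, 104 and 120 CPM in Nr2e3-/- tumors. 8430408G22Rik was nearest to Zbtb16, a zinc finger transcription factor (0.14), at 18.2, 14.0 and 19.0 CPM in WT and 73.8, 42.6 and 57.5 CPM in Nr2e3-/- tumors, and then to Tchh (0.27) and Arl4d (0.28). E030018B13Rik was nearest to Mup7 (0.39), Capn8 (0.40) and Mup16 (0.56), of which Mup7 and Mup16 are major urinary protein genes with near-identical copies, whose reads may be split between members. Nnt was nearest to Sat2 (0.04), Leng8 (0.05) and Tyw5 (0.06), and 2270 genes lay within 0.2 of it, as its difference was small.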

How the data were processed

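RNA-seq was measured in 6 libraries, and the title of each gave its genotype group. Dose, age and time point are as the study describes them. The authors aligned single-end TruSeq reads to mm10 with TopHat and counted them per gene with featureCounts, and these raw counts were deposited. A normalized table and the authors' own DESeq comparison (fold changes and p-values) were not used. Counts were filtered with filterByExpr (minimum count 10, minimum total count 15), scaled by TMM and tested with edgeR 4.0.16 in R 4.3.3 (quasi-likelihood F test, adjusted p-value under 0.05). Alternatives were RLE and upper quartile scaling, DESeq2 1.42.0, limma-voom (limma 3.58.1), other filters, the replicate number as a block and leaving out each library. The edgeR step was tested on simulated data. Exon lengths came from GENCODE vM21, and positions and promoters from RefSeq, both on GRCm38. 8430408G22Rik was matched as Depp1, and 27 symbols had been turned into dates.

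The genes, lists and tests were chosen with earlier results of these data known, and the lists were written from memory. By a fixed rule the text names the 5 genes, the 3 smallest p-values of each list, non-overlapping neighbours, the 3 nearest patterns and the 10 widest gaps, and other genes were named after their values were seen. Total counts were 15376261 to 28690279 per library, which sets the precision of low counts.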

Additional observations from a re-analysis of the deposited data

How the results depend on the processing

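The number of genes with an adjusted p-value under 0.05 depended on the processing. It was 13 in edgeR with TMM or RLE scaling, 8 with upper quartile scaling, 1095 with DESeq2, 7 with limma-voom, 70 with no filter beyond 1 count, 7 with at least 10 counts in every library, and 0 with the replicate number as a block, where 2438 genes had an unadjusted p-value under 0.05. Leaving out each library gave 0 to 3022, the highest without Nr2e3-/- replicate 1, and 0 without WT replicate 1, WT replicate 3 or Nr2e3-/- replicate 3, where 2151, 1785 and 1693 genes had an unadjusted p-value under 0.05. Genes not overlapping numbered 4266 to 7603 when a library was left out and 3347 to 4118 with other scalings and filters. Leaving out a library in itself makes non-overlap easier to reach, so these ranges do not compare like with like. With DESeq2, 3 copper genes, 2 of Toll-like receptor signaling, 1 FOXO gene, 1 of NADPH supply, 2 Krüppel-like factors, 2 substrain genes and 4 neighbours passed. When libraries were left out the counts ranged from 0 to 7, 0 to 11, 0 to 2, 0 to 4, 0 to 4, 0 to 2 and 0 to 7 in the same order, and from 0 to 2 for FYVE domain proteins, the highest each time without Nr2e3-/- replicate 1. The fold changes of the 5 genes kept their sign in all alternatives that gave a value. That of E030018B13Rik moved beyond its replicate spread without WT replicate 1 (3.80, with 3.18 to 3.80 when each library was left out). With at least 10 counts in every library, Moxd1 and E030018B13Rik had no value. Nnt lay between -0.33 and -0.13 and passed in none. The titles give replicate numbers but state no pairing of samples. Same-numbered libraries correlated in their deviations from the group means by -0.08, 0.22 and 0.02. WT replicates 1 and 2 both correlated best with Nr2e3-/- replicate 2 (0.05 and 0.22), and WT replicate 3 with Nr2e3-/- replicate 1 (0.22). With 3 libraries per group these values cannot decide whether samples were paired. The cause of the shifts with processing was not tested. Depth limits E030018B13Rik and the WT level of Moxd1 most.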
